A study of Mus musculus with 3 samples.

Results

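The ribosomal proteins of the cytosolic ribosome were read in 3 cell populations of mouse epididymal fat. They were taken by gene symbol: a gene was a member where its name on the array began with Rpl or Rps and went on with a subunit number, a P-protein number or the letter a, so that Rplp0 to Rplp2 and Rpsa were taken and ribosomal protein kinases were not. This rule, which uses no measured value, found 81 genes among 37073, and their 176 probes were among 56602. Of these genes, 49 carry large-subunit names and 32 small-subunit names. The rule also took the second copies Rpl3l, Rpl10l, Rpl39l, Rps27l and Rps4l, and it left out genes of ribosomal proteins with other kinds of names, such as Rps3a1 and Fau. All 81 names were found in the reference gene table, where 80 are protein coding and Rps4l is listed as a transcribed pseudogene.

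A ribosome joins a small subunit, which reads the mRNA, with a large subunit, which links the amino acids, and each subunit holds ribosomal RNA and one copy of most of its proteins. The proteins are needed in matched amounts, and their mRNAs are among the most abundant of a growing cell. Most of these mRNAs start with a run of pyrimidines, the terminal oligopyrimidine (TOP) tract, through which the growth signal of the kinase complex mTORC1 sets their translation and stability. In fat, progenitor cells divide and grow, whereas a mature white adipocyte does not divide and is filled by a single lipid droplet.

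The study asked what distinguishes small proliferative adipocytes (SPA), which sediment from the floating fraction of digested fat, from stromal vascular cells (SVC) and from mature white adipocytes (MWA). All cells came from epididymal fat of male C57/BL mice aged 20 weeks, untreated and of no stated mutant genotype. These are the labels' values for age and spins. The study's methods give a slightly slower first spin, and its text says that most experiments used younger mice. SVC were the cells below the floating layer after a spin at 9 g for 1 s, MWA the cells that still floated after 226 g for 3 min, and SPA the cells that sank in that second spin. SVC and SPA were cultured in DMEM to 90% confluence, and for MWA no culture is described, so that culture and cell type cannot be told apart in any comparison with MWA. The MWA sample also carries another date than the other samples. Each population was measured on 1 array from 50 ng of total RNA, so no difference has a replicate check, no p-value is given, and the labels give no number of mice per array, while the study's methods describe RNA from cultures that pooled the cells of several mice. In bulk RNA, fewer cells of a type and less RNA per cell cannot be told apart.

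A level below is the log2 of the background-subtracted signal over the 75th percentile of the same array, and a difference is the log2 ratio of 2 such levels. At least 2-fold was used as the call. Each gene has 1 value, that of its brightest probe by mean over the arrays. Adipocyte identity followed the labels: the log2 of the summed signal of 9 adipocyte markers was 3.31, 6.23 and 11.4 in the order SVC, SPA, MWA, and the probe of the adipokine Adipoq was below the detection call in SVC. Other cell types moved with MWA as well. In MWA over SPA, 10 of 10 markers of dividing cells were at least 2-fold lower, with a log2 summed signal of 7.08 for SVC, 6.72 for SPA and 3.98 for MWA. All 7 red blood cell markers with a ratio, of 8 on the array, were at least 2-fold higher in MWA, where the log2 summed signal was 9.52 against -1.31 in SVC and -1.19 in SPA. Endothelial markers were at least 2-fold higher in 6 of 7, with log2 summed signals of 1.62, 2.36 and 5.12 in the same order of arrays. Of 7 mesothelial markers 4 were at least 2-fold higher in MWA over SPA and 0 lower, and of 8 lymphocyte markers with a ratio 4 and 0. Of 8 fibroblast-like stromal markers 4 were higher and 2 lower, and of 9 macrophage markers 3 and 3. The part of these cells in the ribosomal protein values was not tested.

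Reference promoters (RefSeq, build GRCm38.p6, 250 bases before and 50 after the annotated start) were matched by symbol for 60 of the 81 genes. The letters CTTTCC stood on the sense strand within 50 bases of the annotated start in 19 of the 60 genes (31.7%), against 5.43% of all 27025 genes with a promoter, and on the antisense strand in 1.67% of the members and 5.12% of all genes. Below are 30 bases, 15 on either side of the boundary before the annotated start, of 8 members with that motif. They are shown because the tract begins near the annotated start. In Rpl13a and Rpl18 it begins after the annotated start base, and members not shown, such as Rpl35a, have such a run as well. The capitals mark the unbroken pyrimidine run that holds the motif.
Rpl35, large subunit, chr2:39005117-39005146, minus strand: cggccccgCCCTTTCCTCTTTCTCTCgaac
Rpl15, large subunit, chr14:18270972-18271001, minus strand: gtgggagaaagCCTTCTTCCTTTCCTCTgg
Rpl13a, large subunit, chr7:45128731-45128760, minus strand: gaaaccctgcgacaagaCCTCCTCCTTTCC
Rpl18, large subunit, chr7:45718056-45718085, plus strand: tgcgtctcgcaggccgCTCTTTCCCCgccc
Rpl28, large subunit, chr7:4792950-4792979, plus strand: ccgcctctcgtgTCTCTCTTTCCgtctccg
Rpl38, large subunit, chr11:114668565-114668594, plus strand: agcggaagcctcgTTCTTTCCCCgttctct
Rps10, small subunit, chr17:27635230-27635259, minus strand: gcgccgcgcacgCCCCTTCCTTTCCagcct
Rps27, small subunit, chr3:90213634-90213663, minus strand: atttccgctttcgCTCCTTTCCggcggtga

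The runs in these windows were 9 to 18 bases long, the longest in Rpl35, and began between position -7 and position 3, where position 1 is the annotated start and the base before it is -1. A motif match describes these letters only, since annotated starts often differ from the base at which an mRNA begins. Members with and without CTTTCC near the start had nearly the same MWA over SPA difference, with a median log2 ratio of -0.91 in 18 genes with it and -0.92 in 38 without. The letters CCGGAAG, the core read by ETS family transcription factors, lay on either strand of the whole promoter window in 41.7% of the members against 9.93% of all genes, and the medians were -0.85 in 23 genes with it and -0.93 in 33 without. Among the 8 members shown, the MWA over SPA log2 ratio ran from -1.08 in Rps10 to -0.41 in Rps27.

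Nearly all ribosomal proteins were read on every array. In SVC and SPA 79 of the 81 were well above background and in MWA 77. Rpl3l and Rpl10l, copies known mainly from striated muscle and testis, were not well above background on any array, and Rpl39l and Rpl37 not in MWA. Over the 77 members read on all arrays the median level was 7.43 on the SVC array, 7.33 on the SPA array and 6.42 on the MWA array. Of the summed signal of all genes the members held 7.77% for SVC, 7.15% for SPA and 4.44% for MWA. SVC and SPA were thus close, and MWA was the low array at this scaling, with 19 members higher in MWA than in SPA under quantile normalization.

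**Figure D1:**
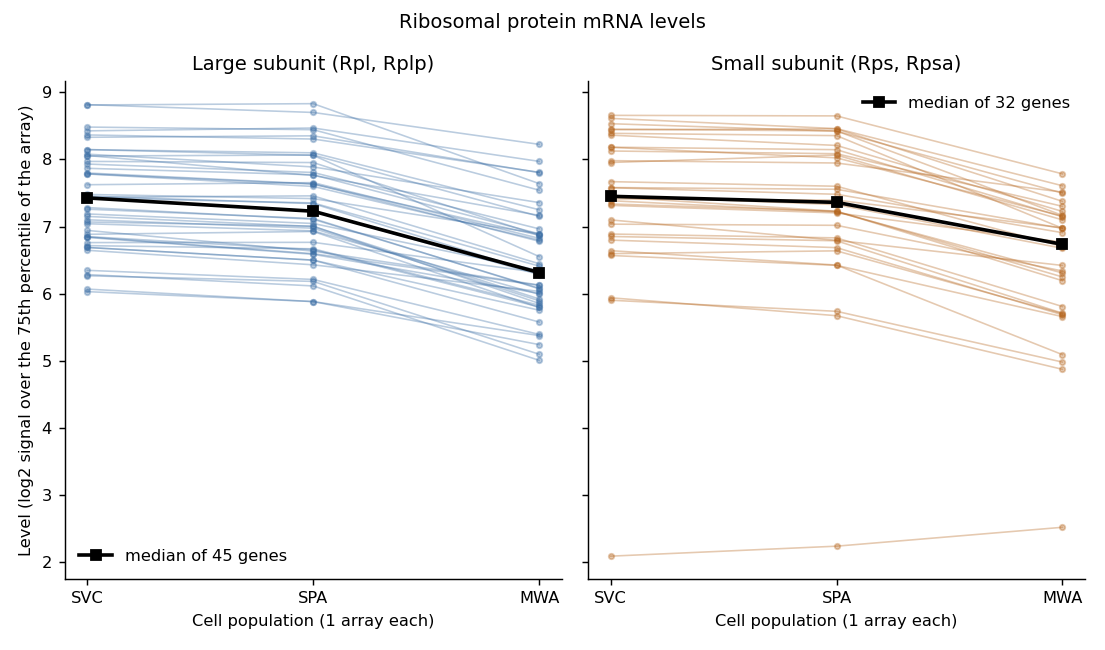
Levels of the 77 ribosomal protein genes read on all 3 arrays, as log2 signal over the 75th percentile of the array, with 1 line per gene, large subunit on the left and small subunit on the right, and the median in black. The lines run nearly flat from SVC to SPA and drop to MWA, apart from Rps4l at the bottom right, which went from 2.09 to 2.24 and 2.52. With quantile normalization, not drawn here, 19 members were higher in MWA than in SPA.

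In SPA over SVC no member differed by 1.5-fold at its brightest probe and the 75th percentile scaling. With the dimmest probe well above background on all arrays, 1 member, Rps9 (-0.62), was at least 1.5-fold lower, against 8.63% of all genes. Of 79 members with a ratio, 66 were lower in SPA at any size, or 59 to 77 under other scalings, against 42% of all genes tested, and the median log2 ratio was -0.11 beside 0.07 over all genes. None was at least 2-fold higher, against 3.9% of all genes, or at least 2-fold lower, against 3.25%. At 1.5-fold the count was 0 against 10.6% higher and 8.09% lower among all genes, and at 5-fold 0 against 0.322% and 0.353%. The lowest ratios were those of Rpl39l (-0.34), Rpl7a (-0.31), Rps15 (-0.30), Rpl10a (-0.30) and Rps27l (-0.27), and the highest those of Rps4l (0.15), Rps28 (0.11), Rpl36a (0.04), Rplp2 (0.04) and Rps4x (0.04). With quantile normalization 20 members were higher in SPA instead of 13, and with the 75th percentile taken only over probes that passed the background call on each array 2 were higher and 77 lower. Spots repeated on the same array show how finely the arrays could resolve this. After outlier spots were left out, 30 members had 8 to 10 spots on the SVC array, and the spread between spots was 0.015 to 0.079 (SD, log2) over the arrays. In 15 of these 30 every SPA spot lay below every SVC spot, which covers the error of spots on 1 array and not that between samples. Markers of other cell types moved between these arrays as well: 6 of 7 mesothelial markers were at least 2-fold lower in SPA (log2 summed signal 5.45 in SVC, 3.44 in SPA), 4 of 8 fibroblast-like stromal markers lower (9.06 and 7.97), 3 of 9 macrophage markers lower (9.13 and 9.24) and 3 of 7 endothelial markers higher. Their part in the ribosomal protein values was not tested.

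In MWA over SPA the shift was larger and almost of 1 direction. Of the 79 members, 78 were lower in MWA, or 60 with quantile normalization, against 52.9% of all 23956 genes tested. At least 1.5-fold lower were 59 members, against 29.6% of all genes, and at least 2-fold lower 21 members, against 17.9%. None was higher by at least 1.5-fold, against 24.9%, or by at least 2-fold, against 15.8%. The median log2 ratio was -0.86, a 1.81-fold lower level, with a middle range from -1.01 to -0.59, beside a median of -0.07 and a middle range from -0.73 to 0.58 over all genes. The members thus lay close together within the spread of all genes rather than at its lower end: none was 5-fold lower or higher, against 3.98% and 5.49% of all genes. For the 30 members on repeated spots the median was -0.85 with a median spot error of 0.021 (SE), and in all 30 every MWA spot lay below every SPA spot at this scaling.

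This difference depended on how the arrays were put on 1 scale. With quantile normalization over all spots the median was -0.22, and 60 members were lower and 19 higher. At least 1.5-fold lower were 11, against 27.7% of all genes, and none was 2-fold lower, against 16.7%. Quantile normalization gives every array the same distribution. Member spots were 27.4% of the brightest 1% of spots for SVC, 25.1% for SPA and 20.0% for MWA, and their part in the change of the median was not tested. With each probe used once the median was -0.55, and with the distribution taken from probes outside the members it was -0.62, with 78 members lower and 1 higher in both. By rank among all 37073 genes of an array, the median member stood at the 99.4th percentile in SPA and the 98.9th in MWA, and 76 of 77 members ranked lower in MWA. Genes of like level differed too, and not all in 1 direction. Of genes outside the members that were measured on both arrays, the 319 with a mean level between 6 and 7 had a median of -0.55 beside -0.94 for 32 members, and the 128 between 7 and 8 had -0.49 beside -0.86 for 29 members. The 60 brightest, between 8 and 10, had a median of 0.19 beside -0.55 for 7 members.

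**Figure D2:**
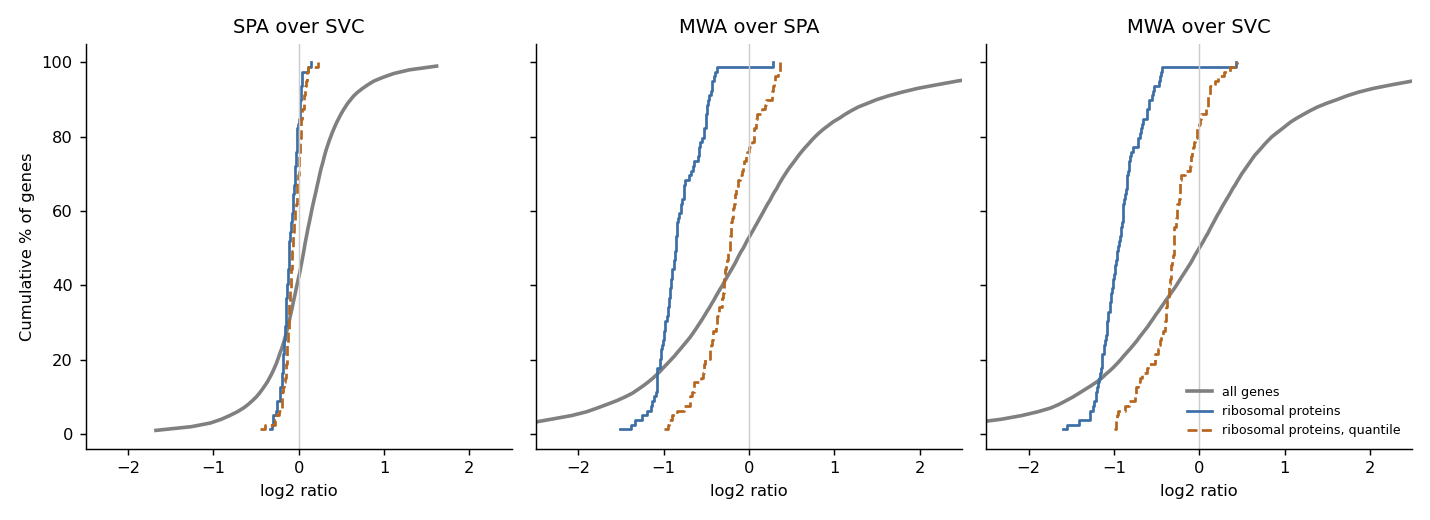
Cumulative share of genes (percent) against the log2 ratio for the 3 comparisons, for all genes (grey) and the ribosomal proteins (blue) at the 75th percentile scaling and for the ribosomal proteins after quantile normalization over all spots (dashed orange). In MWA over SPA the blue curve is shifted to a median of -0.86 and is steeper than the grey one, and quantile normalization moves it to -0.22.

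In MWA over SVC the picture was close to that against SPA, and both comparisons share the MWA array. Of 79 members, 78 were lower in MWA, or 66 with quantile normalization (49.8% of all genes), 70 at least 1.5-fold (29.4%) and 34 at least 2-fold (18%), and 0 were higher by at least 1.5-fold (27%) or 2-fold (17.3%). At 5-fold 0 were lower (3.97%) or higher (5.74%). The median was -0.95 beside 0.00 over all genes, and -0.30 with quantile normalization, where 13 members were higher. Among the lowest were Rpl12 (-1.59), Rps2 (-1.55), Rpsa (-1.41) and Rpl5 (-1.28), and the highest Rps4l (0.43), Rps27 (-0.43), Rpl9 (-0.45), Rplp2 (-0.45) and Rps29 (-0.47).

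Single members differed from each other by more than the spots did. The large-subunit protein Rpl12, which binds at the base of the flexible stalk where translation factors dock, had a level of 8.15 for SVC, 8.06 for SPA and 6.55 for MWA, and was 2.84-fold lower in MWA than in SPA. MWA was the low array, and SVC and SPA were nearly level. Its probe and a second one on another stretch of the transcript are shown because the probe read has the lowest MWA over SPA ratio of any member at the 75th percentile scaling, whereas under quantile normalization Rplp1 (-0.99) and Rpsa (-0.96) lay below Rpl12 (-0.94) (mm9, plus strand, 60 bases each).
Rpl12, probe read, chr2:32819082-32819298: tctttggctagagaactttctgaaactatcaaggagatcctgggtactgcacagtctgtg
Rpl12, second probe, chr2:32818526-32818585: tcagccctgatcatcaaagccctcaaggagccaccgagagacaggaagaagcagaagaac

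The second Rpl12 probe read 7.04 (SVC), 6.84 (SPA) and 5.40 (MWA), a log2 ratio of -1.44, and a further dim probe on no curated transcript had -1.66. The probe read spans 217 bases of the genome and so crosses a splice junction. Rpsa, also known as the laminin receptor and held on the outer face of the small subunit, read 8.39 (SVC), 8.36 (SPA) and 6.98 (MWA). Its MWA over SPA log2 ratio was -1.38. Rps2, which lines the entry of the mRNA channel, read 6.64 (SVC), 6.43 (SPA) and 5.09 (MWA) over 10 spots an array, with spot SDs of 0.035, 0.036 and 0.058. Its log2 ratio was -1.33 ± 0.022 (SE over spots of 1 array each), or -0.69 with quantile normalization.

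These members, named because they were lowest on these same arrays, were lower under every scaling. Under each of the planned and added alternatives, 8 members were lower in MWA by 1.5-fold or more against SPA, among them Rpl12, Rpl35, Rplp1, Rps10, Rps18, Rps2 and Rpsa. In all, 57 of 79 members were lower under every alternative. The shares of all genes that meet the same conditions were not computed. With quantile normalization alone 27.7% of all genes were at least 1.5-fold lower, against 11 of 79 members. At the other end stood Rps15, a small-subunit protein near the decoding site, with 7.10 (SVC), 6.80 (SPA) and 6.42 (MWA) and a log2 ratio of -0.37. Rpl24, which forms a bridge between the subunits, had -0.40, and the zinc-binding small-subunit proteins Rps27 and Rps29 had -0.41 and -0.43. Quantile normalization turned 3 of these around, to 0.37 in Rps15, 0.36 in Rpl24 and 0.27 in Rps27, and left Rps29 at -0.06. The probes read for Rps27 and Rps29 are placed on chromosomes 9 and 2, whereas the genes lie on chromosomes 3 and 12. A Rps29 probe placed on chromosome 12 was dim (-5.26, -4.76 and -7.37 in SVC, SPA and MWA). Rpl12 stood at -0.94 under that normalization and Rps15 at 0.37. Both were named for their ratios on these same arrays, so the gap is no check of their order.

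**Figure D3:**
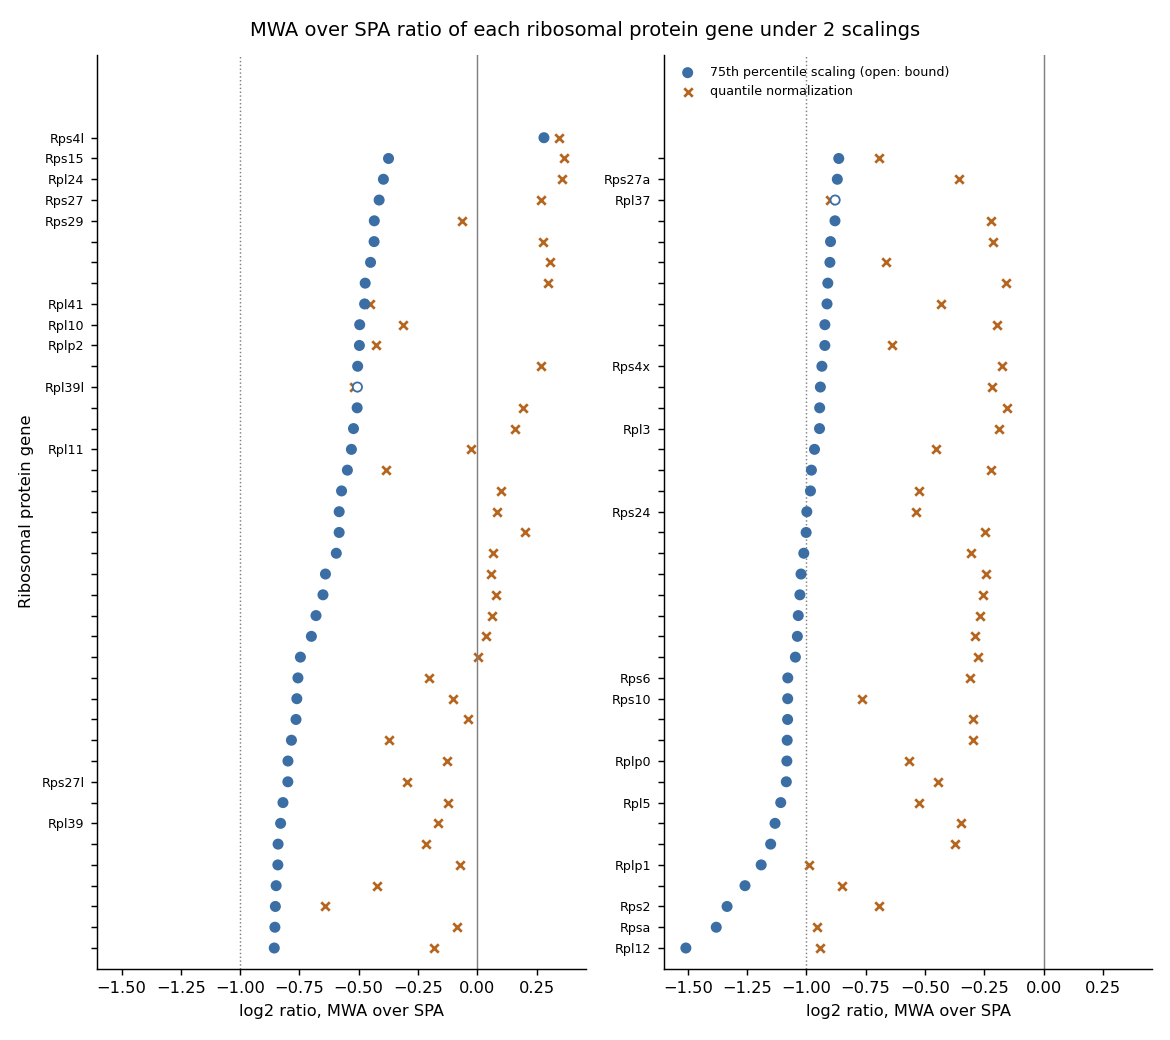
The log2 ratio of MWA over SPA for each of the 79 ribosomal protein genes with a ratio, ordered by the 75th percentile scaling (blue circles, open where MWA was not well above background and the value is a bound) with quantile normalization beside it (orange crosses), and dotted lines at 2-fold lower. Names are given for some of the genes described in the text. Circles run from -1.51 in Rpl12 to -0.37 in Rps15, with Rps4l at 0.28, and the crosses lie further right in most genes.

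The 3 stalk proteins did not move alike. Rplp0, which anchors the stalk, read 7.97 (SVC), 7.95 (SPA) and 6.87 (MWA). Rplp1 had 8.81, 8.83 and 7.64, and Rplp2 had 8.43, 8.47 and 7.97. The MWA over SPA log2 ratios were thus -1.08, -1.19 and -0.50, and they were -0.57, -0.99 and -0.43 with quantile normalization. Rplp1 and Rplp2 sit on the stalk in pairs. Rplp2 was 1 of 9 members whose probe listed transcripts of several genes in the reference table. The probe read for Rplp1 listed no curated transcript. The 2 Rplp1 probes on a curated transcript had MWA over SPA log2 ratios of -1.44 (10 spots) and -1.47 without quantile normalization. The size of the gap between Rplp1 and Rplp2 thus depended on the Rplp1 probe. The 5S particle pair, which joins the large subunit together with 5S ribosomal RNA and otherwise restrains the p53 regulator Mdm2, differed likewise. Rpl5 read 6.29 (SVC), 6.12 (SPA) and 5.01 (MWA) over repeated spots, with a ratio of -1.11 ± 0.025 (SE over spots), or -0.52 with quantile normalization. Rpl11 had 8.08, 7.89 and 7.36 and a ratio of -0.53, which was -0.03 with quantile normalization.

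Rps6, the small-subunit protein phosphorylated by the S6 kinases downstream of mTORC1, read 6.85 (SVC), 6.79 (SPA) and 5.71 (MWA), and had a MWA over SPA log2 ratio of -1.08 ± 0.011 (SE over spots), or -0.31 with quantile normalization. Rps27a, made as a fusion to ubiquitin, had 8.18, 8.02 and 7.15, a ratio of -0.87, or -0.36 with quantile normalization. Both lay lowest in MWA. Ribosomal proteins outside the naming rule gave values in the same range in MWA over SPA: -0.55 in Fau and -0.43 in Rps3a1. By subunit the median was -0.85 over 47 large-subunit genes and -0.88 over 32 small-subunit genes, and -0.22 and -0.25 with quantile normalization. The middle range ran from -1.02 to -0.57 in the large subunit and from -0.999 to -0.67 in the small one, so that the lists overlapped widely.

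Second copies were set beside their main copies. The probes of 2 pairs are shown because the second copy was not well above background on any array while its main copy was (mm9).
Rpl10, chrX:71518307-71518366, plus strand: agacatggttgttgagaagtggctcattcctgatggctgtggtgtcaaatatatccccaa
Rpl10l, chr12:67384868-67384927, minus strand: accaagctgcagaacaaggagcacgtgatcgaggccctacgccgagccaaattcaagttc
Rpl3, chr15:79908295-79908445, minus strand: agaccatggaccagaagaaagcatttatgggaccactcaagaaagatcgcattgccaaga
Rpl3l, chr17:24872413-24872681, plus strand: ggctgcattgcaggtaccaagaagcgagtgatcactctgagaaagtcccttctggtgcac

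Rpl10 read 8.37 (SVC), 8.30 (SPA) and 7.81 (MWA), and Rpl3, near the peptidyl transferase centre, had 7.43, 7.23 and 6.28. Their MWA over SPA log2 ratios were -0.50 and -0.94, and -0.31 and -0.19 with quantile normalization. No fold can be given for Rpl10l and Rpl3l. Rpl39l, a copy of the exit tunnel protein Rpl39 known from testis, was well above background in SVC (-4.31) and SPA (-4.64) and not in MWA (-7.40). At the 75th percentile scaling this bounds it as at least 1.42-fold lower in MWA against SPA. Over the alternatives its log2 ratio reached -0.05 at the highest. Rpl39 itself had 7.62, 7.65 and 6.83 and a ratio of -0.83, or -0.16 with quantile normalization. Rps27l, a p53 target, had 5.94, 5.67 and 4.87 and a ratio of -0.80 (-0.30 with quantile normalization), beside -0.41 in Rps27, whose probe also lists the retrogene Rps27rt and lies on chromosome 9 rather than at Rps27 itself. Rps4l was the single member that was higher in MWA at the 75th percentile scaling, with 2.09, 2.24 and 2.52, while Rps4x had 6.60, 6.64 and 5.70. Rpl37, whose only probe was dim (-4.30, -4.27 and -6.62 in SVC, SPA and MWA), was by such a bound at least 1.84-fold lower in MWA against SPA at that scaling. The log2 ratio of Rpl37 reached -0.17 at the highest over the alternatives.

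Different probes of a gene mostly gave the same difference. In 43 members with at least 2 probes on curated transcripts, read on all arrays, the ratios of the brightest and the next probe in MWA over SPA correlated across genes with r = 0.88 (Spearman 0.87), a description, since genes are not replicates and both probes share the arrays. The median range within a gene was 0.082, beside an SD between genes of 0.282, and 29 of 43 pairs lay within 0.1 of each other. The value of some members still moved with the probe, among them Rpl41, Rps24 and Rps18 (-0.86 and -1.08), and the other members with a ratio have no such pair. Over probes, 133 of 134 probes on curated transcripts and 29 of 31 probes on other transcripts were lower in MWA than in SPA at the 75th percentile scaling.

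**Figure D4:**
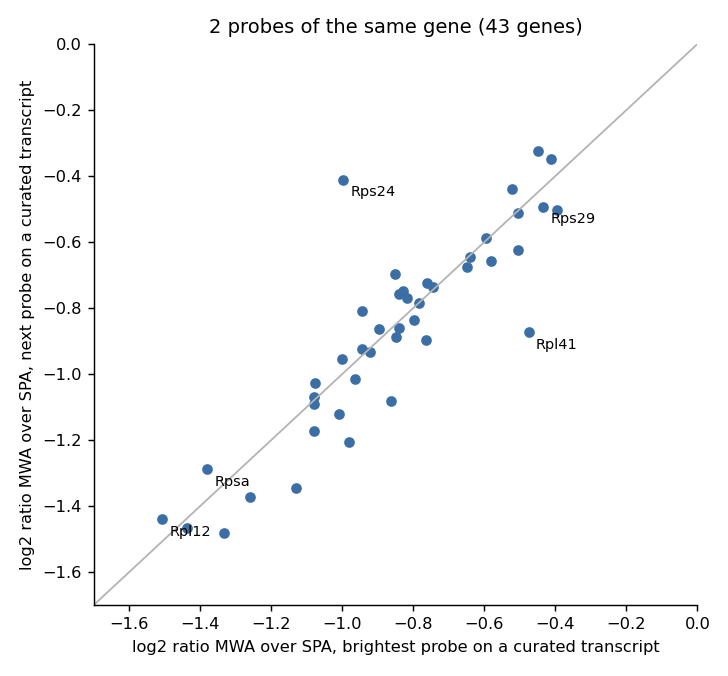
The MWA over SPA log2 ratio of the brightest probe on a curated transcript (horizontal) against that of the next such probe (vertical) for 43 ribosomal protein genes, with the line of equality. Points follow the line with r = 0.88, and Rps24 (-0.998 against -0.41) and Rpl41 (-0.48 against -0.87) lie farthest from it.

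Rps24 was the largest exception, with a range of 0.65 between its probes. Its mRNA is spliced at the 3′ end into forms that differ in the last residues. The probe shared by 3 curated transcripts and read here read 8.18 (SVC), 8.15 (SPA) and 7.15 (MWA), and a second shared probe, upstream, had 6.18, 6.14 and 5.07. A probe listed for only 1 of these transcripts had 7.15, 7.24 and 6.83. At the 75th percentile scaling MWA was lowest with each of them, but the MWA over SPA ratio was -0.998 and -1.07 with the shared probes and -0.41 with the probe of the single transcript. The upstream shared probe and the first 30 of the 60 bases of the single-transcript probe are shown, since the values differ between them (mm9, plus strand). The latter spans 2321 bases of the genome.
Rps24, shared by 3 transcripts, chr14:25311190-25312666: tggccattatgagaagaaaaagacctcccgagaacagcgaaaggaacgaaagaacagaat
Rps24, 1 transcript, chr14:25312695-25315015: aatgttggtgctggcaaaaagtgagtggag

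Rpl41, the smallest ribosomal protein, gave -0.48 at its brightest probe and -0.87 at a probe printed on 10 spots. Whether transcript forms or probe properties set the gap was not tested. Paralogous genes limit these readings as well. The reference table lists 324 pseudogenes with Rpl or Rps names, and a 60-base probe may bind several of them. The 62 members with a ratio whose probe listed 1 gene had a median of -0.87 in MWA over SPA, and the 9 whose probe listed several had -0.84.

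Other genes of translation were read from fixed lists, beside the background of all genes in MWA over SPA of 17.9% at least 2-fold lower and 15.8% at least 2-fold higher. Of 39 genes of ribosome assembly and ribosomal RNA synthesis, 24 passed 2-fold lower and 0 passed 2-fold higher in MWA over SPA, and the median was -1.11, or -1.04 with quantile normalization. Among them the rRNA methyltransferase Fbl (fibrillarin) read 5.45 (SVC), 5.24 (SPA) and 3.82 (MWA), Nop56 had 4.38, 4.05 and 2.23, and Nop2 had 4.01, 3.85 and 1.85. Ubtf, which opens ribosomal RNA genes to RNA polymerase I, was the highest of the list, with 6.11, 6.40 and 6.89. Quantile normalization thus moved the median of this list by less than that of the ribosomal proteins.

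TOP mRNAs that encode no core subunit protein by the naming rule were lower too. Of 19, 7 passed 2-fold lower in MWA over SPA and 0 passed it higher, with a median of -0.67, or -0.35 with quantile normalization. They included the nucleolar chaperone Npm1 (-1.89), the elongation factor subunit Eef1g (-1.60), the poly(A) binding protein Pabpc1 (-1.37) and Gnb2l1 (-1.34), the scaffold protein on the small subunit now named Rack1. Of 30 initiation factors 6 were at least 2-fold lower, a share near the 17.9% of all genes, and 1, the helicase Eif4a2 (1.04), at least 2-fold higher, with a median of -0.49. Its relative Eif4a1 had -0.83. Of 7 ribosomal protein chaperones 2, Grwd1 (-1.59) and Pdcd2 (-1.23), were at least 2-fold lower. In SPA over SVC none of these 4 lists had a gene past 2-fold.

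Mitochondrial ribosomal proteins, which serve the separate ribosome of that organelle, lay near the median of all genes. Of 48 proteins of the large mitochondrial subunit 1 passed 2-fold higher and 0 passed it lower in MWA over SPA, with a median of -0.08, and of 30 of the small subunit 1 was higher and 0 lower, with a median of -0.14. These medians ran from -0.11 to 0.00 and from -0.28 to -0.05 over the alternatives. Of 16 genes of mTORC1 and of TOP mRNA control, 2 passed 2-fold higher and 0 lower, with a median of 0.09 that ran from -0.04 to 0.24 over the alternatives. These 2 were Deptor, which binds and inhibits mTOR, with -2.18 (SVC), -2.05 (SPA) and 1.77 (MWA), and the transcription factor Myc, with 0.27, 0.31 and 1.99. Larp1, which binds TOP tracts, had 3.56, 3.73 and 2.93. Of 12 genes in common use as references, 3 passed 2-fold lower and 2 higher in MWA over SPA, and Ppia had 8.86, 8.80 and 8.78.

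**Figure D5:**
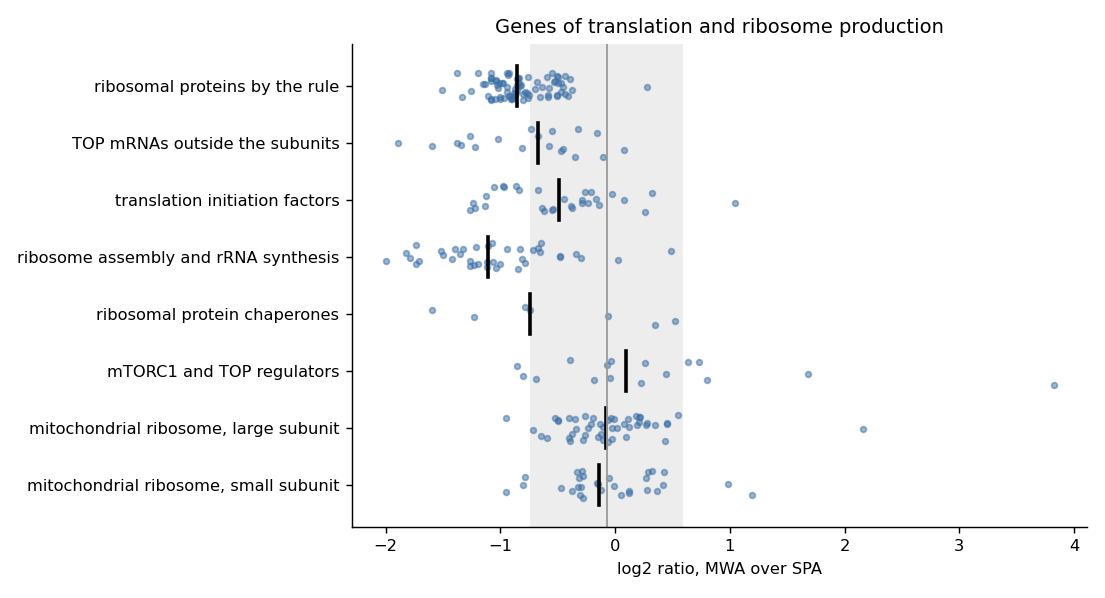
The MWA over SPA log2 ratio of each gene (points) in the ribosomal proteins and 7 other lists of translation and ribosome production, with the list median as a black bar, and the median and middle range of all genes in grey. The ribosomal proteins (-0.86) and the ribosome assembly genes (-1.11) lie to the left, and the mitochondrial ribosome lists (-0.08 and -0.14) near the median of all genes.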

How the data were processed

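Gene expression was measured on 3 Agilent 1-colour mouse arrays, 1 per population, grouped by the labels. Per the labels and file headers, the authors deposited spot intensity values from Agilent Feature Extraction 10.7.3.1, with background subtracted and trends within the array removed. They also deposited a ratio of each processed signal to 1 constant per array, used here as an alternative. The study names GeneSpring GX, and its normalization settings are not given in the sources used here.

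The members and lists were chosen with earlier results of these data known. Control spots and outlier spots were left out (75 in SVC, 98 in SPA, 129 in MWA), log2 intensities were scaled to the 75th percentile of spots that are not controls (a signal of 430, 439 and 366), and spots of a probe were averaged. A gene got a ratio where at least the brighter of both arrays passed the scanner's background call. A dim probe was raised to the lowest level well above background on its array where it lay below that level, and otherwise kept its own (a bound). A bound that passed the brighter signal gave no fold. No spot was saturated, and 58.6% to 61.4% of spots were well above background. With 1 array a group no test was possible, and precision is limited by this number of arrays. Members named are the 5 highest and 5 lowest of each comparison, the stalk, the 5S pair, Rpsa, Rps6, Rps27a and second copies with their main copies. Others (Rpl41, Rps24, Rpl35, Rps10, Rps18, Rpl37 and the members with start windows) were chosen after their values or sequences were seen. Some genes that these rules name are not reported here. Probe positions are in mm9. Alternatives were 10 planned settings, 2 other fold thresholds and 2 settings added after seeing the data, with normexp from limma 3.58.1 in R 4.3.3. The rest was computed in Python 3.11.15, pandas 2.3.3 and numpy 2.4.6, and the ratio step was tested on simulated data.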

Additional observations from a re-analysis of the deposited data

How the results depend on the processing

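Quantile normalization changed the ribosomal protein results of both MWA comparisons most. In MWA over SPA the median log2 ratio of -0.86 became -0.22, and in MWA over SVC that of -0.95 became -0.30. Of 79 members 0 were at least 2-fold lower instead of 21 and 34. Of all genes 16.7% and 17.7% were at least 2-fold lower, instead of 17.9% and 18%. Settings added after seeing the data gave values in between. With each probe used once the medians were -0.55 and -0.64, with 5 and 7 members 2-fold lower. With the distribution taken from probes outside the members they were -0.62 and -0.78, with 6 and 8 members 2-fold lower. The shares of all genes were 17.2% and 18.5%. Taking the 75th percentile only over probes that passed the background call on each array gave -0.77 in MWA over SPA. There 9 members were 2-fold lower, against 16.0% of all genes. The same setting moved the median of SPA over SVC from -0.11 to -0.17, with 77 members lower and 2 higher instead of 66 and 13. At 1.5-fold 59 members were lower in MWA than in SPA and 70 lower than in SVC, against 29.6% and 29.4% of all genes. At 5-fold 0 and 0 were lower, against 3.98% and 3.97%. Without the filter on dim probes 1 member was at least 2-fold higher in each of the 3 comparisons, Rpl10l in SPA over SVC and Rpl3l in both others. The remaining alternatives kept the direction of all 3 medians, moved them by less than 0.057 (log2), the error of a ratio of 2 spots, and left the counts of members at least 2-fold lower within 1.5 times. Of members higher at any size in MWA, there were 3 in place of 1 with the dimmest probe of a gene and 2 without the filter. The cause was not tested. No paired analysis was possible because each group has 1 array. Signal over local background, with a median of 2.20 to 2.33 over the spots, limits what can be read of dim copies such as Rpl3l, Rpl10l, Rpl39l and Rpl37.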
